A study of Caenorhabditis elegans with 2 samples.

Results

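Chromatin sites of the nuclear hormone receptor NHR-90 in Caenorhabditis elegans were examined at 8 genes that encode regulators of stress and immune responses: zip-2, skn-1, daf-16, pqm-1, atf-7, pmk-1, cebp-2 and hif-1. These are 8 of the 19973 nuclear protein-coding genes of the annotation. They were selected by name with results of the same peak lists in view, so the peaks at these genes are described and not tested. The samples were whole young adult hermaphrodites of strain OP484, a transgenic line with stable expression of NHR-90 fused to a fluorescent tag, grown for 64 h from a synchronized, starved first larval stage. There were 2 biological replicates and no other group. One label calls the tag eGFP and another GFP-FLAG, and the antibody is given as anti-GFP in one field and as nhr-90 in another. All chromatin came from whole animals, so the tissue in which a site was occupied is unknown, and neither the promoter of the transgene nor an untagged strain is given in the labels. The control experiment that the labels name was not analysed here.

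ZIP-2, ATF-7 and CEBP-2 are basic leucine zipper (bZIP) transcription factors, and SKN-1 is grouped with that family here. ZIP-2 drives an infection response that is set off by blocked translation, CEBP-2 is a C/EBP protein that acts in the same response, and ATF-7 is a CREB/ATF family protein that the p38 MAP kinase PMK-1 phosphorylates in the intestinal defence against bacteria. SKN-1, the Nrf protein of the worm, drives detoxification genes, DAF-16 is the FOXO factor held in check by insulin signalling, PQM-1 is a zinc finger protein that acts on many of the same target genes but enters the nucleus when DAF-16 leaves it, and HIF-1 is the hypoxia-inducible factor. Several of these genes are transcribed from more than 1 start, and for skn-1 and daf-16 the alternative starts are known to give proteins with different amino termini and tissues of expression.

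A peak's signal is the value that the authors' peak caller gave it, on a scale the sources used here do not state, and rank 1 is the strongest peak of a list. The lists read, all on genome build ce11, were the IDR list, which holds the 1441 peaks that passed the authors' threshold on the irreproducible discovery rate (a measure of how alike replicates rank their peaks), a list from both replicates pooled (30000 peaks), and a list for each replicate (30000 and 26622 peaks). The last 3 lists are titled as peaks and background, and a low peak in them is not evidence of a site. A summit, the highest point of a peak, counted as lying at a start if it fell in the window that runs from 1000 bp before an annotated transcript start to 500 bp after it. Starts are numbered from the 5′ end of each gene, and negative offsets are upstream.

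The IDR list placed 8 summits in these genes, at zip-2, skn-1, daf-16, pqm-1 and atf-7, and all 8 lay in introns. The summit base with 50 bases of reference sequence on each side is shown for those of zip-2, skn-1, pqm-1 and atf-7, so that the 3 intronic peaks of skn-1 can be compared with each other and with the single peaks of the other genes. Each is written on the strand of its gene, and capitals mark words that match one of 8 searched motifs.

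zip-2, intron before start 2: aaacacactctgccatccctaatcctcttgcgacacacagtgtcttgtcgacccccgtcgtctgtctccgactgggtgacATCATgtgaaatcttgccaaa
skn-1, nearer summit before start 2: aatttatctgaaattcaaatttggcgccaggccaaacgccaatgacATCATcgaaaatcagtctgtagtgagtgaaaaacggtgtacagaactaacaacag
skn-1, farther summit before start 2: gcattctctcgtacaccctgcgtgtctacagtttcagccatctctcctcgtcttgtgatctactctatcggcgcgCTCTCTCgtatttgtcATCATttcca
skn-1, summit before start 3: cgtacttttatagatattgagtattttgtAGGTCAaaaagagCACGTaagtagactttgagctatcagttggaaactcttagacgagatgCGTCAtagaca
pqm-1, intron summit: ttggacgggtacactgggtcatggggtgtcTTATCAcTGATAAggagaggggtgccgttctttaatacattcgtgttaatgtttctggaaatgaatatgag
atf-7, long intron summit: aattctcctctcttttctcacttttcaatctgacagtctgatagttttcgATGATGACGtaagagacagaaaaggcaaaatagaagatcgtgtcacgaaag

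In the same order, these windows are chrIII:833814-833914 on the plus strand, and chrIV:5656125-5656225, chrIV:5657176-5657276, chrIV:5654196-5654296, chrII:11151035-11151135 and chrIII:4496193-4496293 on the minus strand (WBcel235, the assembly of ce11, sequence from RefSeq). The pqm-1 window holds the GATA word TGATAA and its reverse complement with 1 base between them. In the atf-7 window the reverse complement of ATCAT shares 1 base with TGACG.

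An IDR summit lay at an annotated start of zip-2 and of skn-1, 2 of the 8 genes, beside 723 of all 19973 genes (3.62%). It lay within the gene body of 5 of the 8, which adds daf-16, pqm-1 and atf-7, beside 530 of all genes (2.65%). Those 5 were also the genes with an IDR summit in either place, beside 5.17% of all genes. The genes were selected on these lists, so nothing is read from the difference. Gene length bears on such counts: of the 3233 genes of at least 5000 bp, 7.7% had an IDR summit in the body, and of the 2057 genes with 3 or more starts, 8.12% did. In the pooled list 6 of the 8 genes had a summit at a start, all but pmk-1 and cebp-2, beside 42.0% of all genes, and 7 had one in the gene body, all but cebp-2, beside 42.5%. A summit at a start was listed for 7 genes in replicate 1, all but pmk-1, and for all 8 in replicate 2, where the background shares were 42.3% and 41.8%. Restricting each replicate to its 1441 strongest peaks left 2 genes in each: zip-2 and atf-7 in replicate 1, where 3.74% of all genes were reached, and zip-2 and skn-1 in replicate 2, where 3.49% were.

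**Figure D1:**
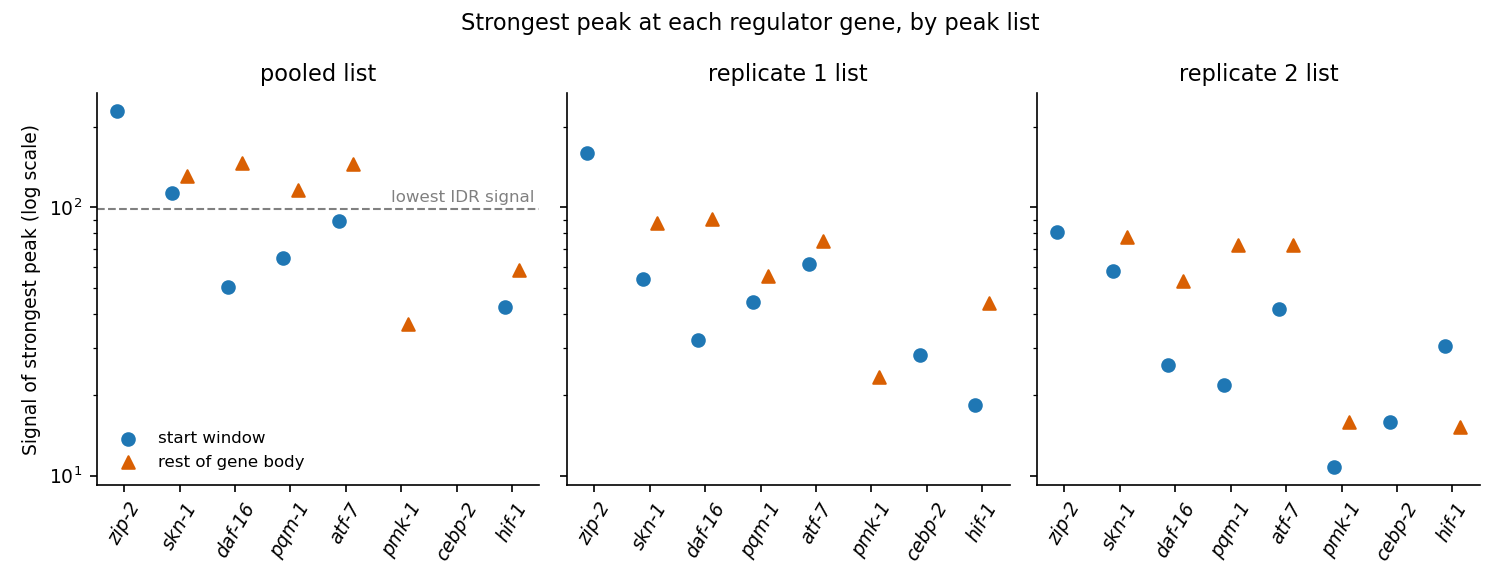
Signal of the strongest peak at each of the 8 genes in the pooled list and in the 2 replicate lists (vertical axis, log scale, authors' signal units that are not stated). Circles show the strongest summit in any start window, triangles the strongest in the rest of the gene body, and the dashed line, in the pooled panel only, the lowest IDR signal of 98.9; zip-2 stands highest in the start window in all 3 lists, and pmk-1, cebp-2 and hif-1 have no pooled point above the line.

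The zip-2 gene (WBGene00019327, chrIII:832982-835814, plus strand) carried the strongest of the 8 summits. Its IDR peak was 188 bp wide with a signal of 228 and rank 225, and its summit at 833864 lay 224 bp upstream of start 2, the start of transcript K02F3.4.1. That position is 882 bp downstream of start 1, inside the first intron of the longer transcript K02F3.4.3, and 441 bp upstream of start 3. Replicate 1 had a signal of 159 there (rank 132) with a summit 2 bp away, and replicate 2 a signal of 80.8 (rank 407) with a summit 90 bp away. Both replicates thus placed the gene's strongest summit before start 2. At start 1 the pooled list had a lower peak, with a signal of 90.9 and rank 1680 at offset 76 bp, below the lowest IDR signal. The replicate 1 peak there had a signal of 64.1 (rank 1243), and the strongest replicate 2 peak in that window had 40.7 (rank 1764) with its summit 845 bp upstream. The nearest small RNA gene to the IDR summit was the snoRNA gene K02F3.15, 255 bp away.

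A second strong region lay just past the 3′ end of zip-2. An IDR summit 159 bp beyond the annotated end, in a coding exon of the neighbouring gene dos-3, had a signal of 254 and rank 171, above the intronic zip-2 summit. It had rank 144 in replicate 1 and rank 244 in replicate 2. The same interval was listed again with a signal of 100.5 and rank 1405 and a summit 1 base outside it. This region is in neither the body nor a start window of zip-2 and is not counted above.

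The skn-1 gene (WBGene00004804, chrIV:5651039-5660384, minus strand) held 3 IDR summits, the most of the 8 genes. None was at start 1, that of transcript T19E7.2a. The summit at 5656175 lay 570 bp upstream of start 2, which belongs to T19E7.2c, the transcript of the intestinal form of the protein. It had a signal of 113 and rank 1116 in the IDR list, a signal of 53.9 and rank 1738 in replicate 1, and 57.8 and rank 874 in replicate 2, with summits 0 and 3 bp away. A stronger summit at 5657226, with a signal of 131 and rank 834, lay 1621 bp upstream of the same start and so outside the start window. Its ranks were 658 in replicate 1 and 943 in replicate 2, and the gene T19E7.26, annotated only as ncRNA, lay 92 bp from it. Thus 2 separate summits, each in both replicates, precede the start of the T19E7.2c transcript within the long first intron of T19E7.2a.

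The third skn-1 summit rested on replicate 2. At 5654246 the IDR peak had a signal of 111 and rank 1149, 1017 bp upstream of start 3, that of T19E7.2b, the transcript of the neuronal form. Replicate 2 had a summit 39 bp away with a signal of 77.8 and rank 442, while replicate 1 had none within 200 bp. The closest replicate 1 summit, at 5654488, had a signal of 53.0 and rank 1779. This position also lies in the start window of clec-178, a C-type lectin gene nested in the skn-1 intron, at offset 297 bp, so the gene to which it belongs cannot be told from position. At starts 1, 3 and 4 of skn-1 the strongest pooled signals were 57.6, 32.9 and 38.8, with ranks 3683, 10403 and 7638, all below the IDR range.

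The daf-16 gene (WBGene00000912, chrI:10750498-10776703, plus strand) is the longest of the 8, with 26206 bp, 11 transcripts and 7 starts. It held 2 IDR summits, neither in a start window. The stronger, at 10758148, had a signal of 146 and rank 664 and lay 4955 bp upstream of start 4, that of the R13H8.1b and R13H8.1c transcripts, within the long intron that separates the first 3 starts from start 4. Replicate 1 gave it rank 601 and replicate 2 rank 1036, with summits 3 and 1 bp away. The other, at 10752140 and 1180 bp downstream of start 3, had a signal of 112 and rank 1133, with rank 947 in replicate 1 and rank 2052 in replicate 2.

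None of the 7 daf-16 starts had a pooled signal above 50.5. That value belonged to a summit 380 bp upstream of start 1 (rank 4676), which replicate 1 ranked 4725 and replicate 2 ranked 6752. The signals at starts 4, 5, 6 and 7 were 43.7, 31.4, 41.7 and 35.7. Start 6, that of the R13H8.1a transcript, therefore stood with the other starts and not apart from them. A pooled summit 793 bp past the 3′ end, with a signal of 97.0 and rank 1494, and one in the first long intron, with 96.1 and rank 1520, fell just below the lowest IDR signal. The pooled list had 34 summits in the gene, or 1.30 per kb, and the other genes with a pooled summit in the body had from 0.809 per kb at pmk-1 to 2.27 per kb at pqm-1. The body of cebp-2 had none. Over the nuclear genome the pooled list had 0.299 per kb, a value that includes sequence between genes and is not a background for gene bodies.

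The pqm-1 gene (WBGene00004096, chrII:11150391-11152595, minus strand) has 1 annotated start. Its IDR summit at 11151085, in an intron 1510 bp downstream of that start, had a signal of 116 and rank 1058, and the peak was 169 bp wide. Replicate 1 had a summit 130 bp away with a signal of 55.4 and rank 1652. The strongest replicate 2 summit within 200 bp, with 72.2 and rank 539, lay 121 bp away on the other side. A weaker replicate 2 summit lay 88 bp away. The closest replicate summits, at 130 and 88 bp, were distant beside the medians of 9 and 15 bp over all nuclear IDR summits. The strongest pooled summit in the start window had a signal of 64.9 and rank 2945 at offset 409 bp, in a coding exon. Replicate 1 ranked its strongest summit in that window 2447 and replicate 2 ranked its own 6393. As at zip-2, a stronger IDR summit lay past the 3′ end, 330 bp beyond it in a coding exon of arrd-6, with a signal of 145 and rank 671.

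The atf-7 gene (WBGene00000223, chrIII:4491627-4499045, minus strand) has 6 annotated starts in 2 clusters. Its IDR summit at 4496243 had a signal of 146 and rank 669 and lay in the long intron, 1793 bp upstream of start 4, that of transcript C07G2.2c. Replicate 1 had a signal of 74.8 and rank 900 at the same base, and replicate 2 had 72.5 and rank 537 at a summit 56 bp away. The gene's strongest summit in a start window lay 264 bp upstream of start 4 in the pooled list, with a signal of 88.6 and rank 1752, in a peak 150 bp wide. It had rank 1345 in replicate 1 and rank 1697 in replicate 2, and was below the lowest IDR signal of 98.9. Before start 1 the pooled signal was only 27.9 (rank 13810), so both notable atf-7 peaks preceded the downstream cluster of starts.

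**Figure D2:**
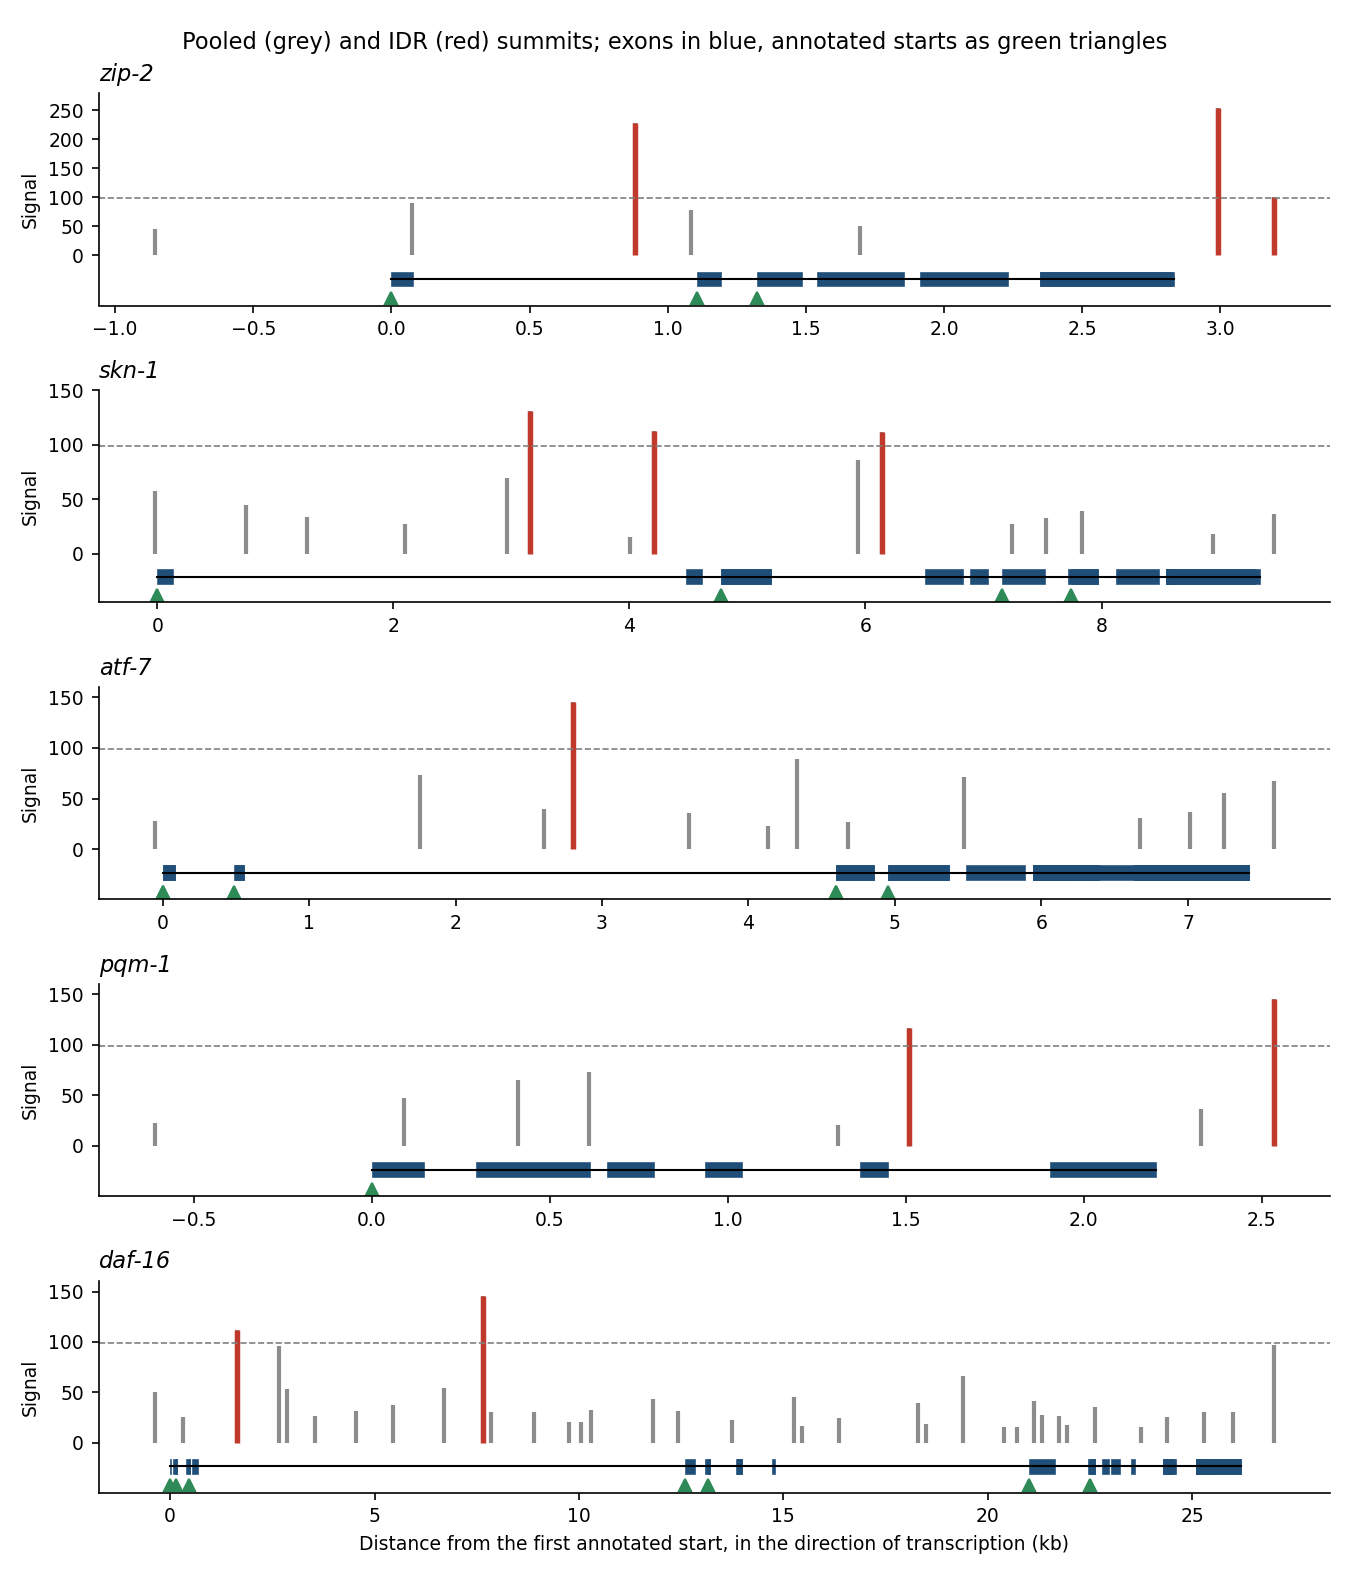
Pooled summits (grey) and IDR summits (red) along the 5 genes that hold an IDR summit, as signal (vertical axis, authors' units that are not stated) against distance in kb from the first annotated start in the direction of transcription. Blue boxes are exons, green triangles annotated starts and the dashed line the lowest IDR signal of 98.9; the red bars within the genes stand over introns, among them those before start 2 of zip-2, starts 2 and 3 of skn-1 and start 4 of daf-16 and atf-7, and those at the right ends of zip-2 and pqm-1 lie past the 3′ end.

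The remaining 3 genes had no IDR summit. The hif-1 gene (WBGene00001851, chrV:20780407-20785260, plus strand) has 4 starts, and its strongest pooled start summit, with a signal of 42.4 and rank 6485, lay in a coding exon 258 bp downstream of start 4, that of transcript F38A6.3c. A stronger pooled summit, with a signal of 58.3 and rank 3606, lay in the 3′ UTR. The replicates differed on where the gene was highest. Replicate 1 had its strongest summit in the 3′ UTR (signal 44.2, rank 2481), where replicate 2 had 15.2 and rank 12772, and replicate 2 had its strongest at start 4 (30.5, rank 3196), where replicate 1 had 11.9 and rank 25372.

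At pmk-1 (WBGene00004055, chrIV:8148794-8151266, plus strand) neither the pooled list nor replicate 1 had a summit in the start window. Replicate 2 listed one with a signal of 10.8 and rank 22377. The strongest pooled summit within the gene had a signal of 36.7 and rank 8511. A higher one, with a signal of 84.5 and rank 1898, lay 689 bp past the 3′ end, where replicate 1 gave rank 2772 and replicate 2 rank 1949. The genes pmk-2 and pmk-3 precede pmk-1 in the same operon, and their strongest pooled start summits ranked 18622 and 9664.

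The shortest gene was cebp-2 (WBGene00016754, chrI:6253082-6253584, plus strand), with 503 bp. It had no pooled summit at its start or in its body. Replicate 1 listed a start summit with a signal of 28.1 and rank 5998, at offset -119 bp, and replicate 2 one with 15.8 and rank 11912, at offset -334 bp. These are different positions. Both signals are above the medians of their lists, 17.4 and 14.9, and neither peak is among the 1441 strongest of its list. Of the pair of genes whose proteins act in the same response, zip-2 thus had the strongest start peak of the 8 and cebp-2 had none in the pooled list.

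The 8 intronic IDR summits were compared in position with all IDR summits. Of the 1422 nuclear IDR summits, 30.1% lay in introns, and of those within a gene, 69.1% did. Without the summits within 100 bp of a tRNA, snoRNA or snRNA gene, the shares were 22.5% and 54.4%. None of the 8 lay that close to such a gene. At zip-2, skn-1, daf-16 and atf-7, 6 of the summits were nearest to an internal start and upstream of it, and 2, at daf-16 and pqm-1, were downstream of the nearest start. None lay in the window of a gene's first start. The weakest of the 8 signals was 111, at skn-1, and the pooled summits of these genes that came closest below the lowest IDR signal of 98.9 were those of 97.0 and 96.1 at daf-16, 90.9 at zip-2 and 88.6 at atf-7.

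Internal starts also led in the pooled list, at lower signals. Of the 5 genes with 3 or more starts, zip-2, skn-1, atf-7 and hif-1 had their strongest pooled start summit outside the window of the first start, and daf-16 had it inside. In replicate 1 these were zip-2, skn-1, atf-7 and daf-16, and in replicate 2 all 5, beside 582 of 1381 such genes (42.1%) in replicate 1 and 557 of 1372 (40.6%) in replicate 2. Among all genes with 3 or more starts and a pooled start summit, 542 of 1348 (40.2%) had the strongest one outside the first window. For the IDR list this share was 57 of 163 genes (35.0%). A gene with more starts offers more windows after the first, and the selection of these genes used the same values, so the counts are given as a description.

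Rank in the replicates is given for the 8 summits as a description. Peaks enter the IDR list because the replicates rank them alike, so a summit in each replicate adds no separate support. Of all 1422 nuclear IDR summits, 1395 had a summit within 200 bp in each replicate list, with median ranks of 702 in replicate 1 and 732 in replicate 2. Here 7 of the 8 had one in each, the third skn-1 summit being the exception. At pqm-1 the replicate summits whose ranks are given lay on opposite sides of the IDR summit. The zip-2 summit ranked above both medians, at 132 and 407. The summits of atf-7 and pqm-1 and the nearer skn-1 summit ranked higher in replicate 2, and both daf-16 summits and the farther skn-1 summit ranked higher in replicate 1. With 1 list for each replicate, these orders have no error estimate.

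**Figure D3:**
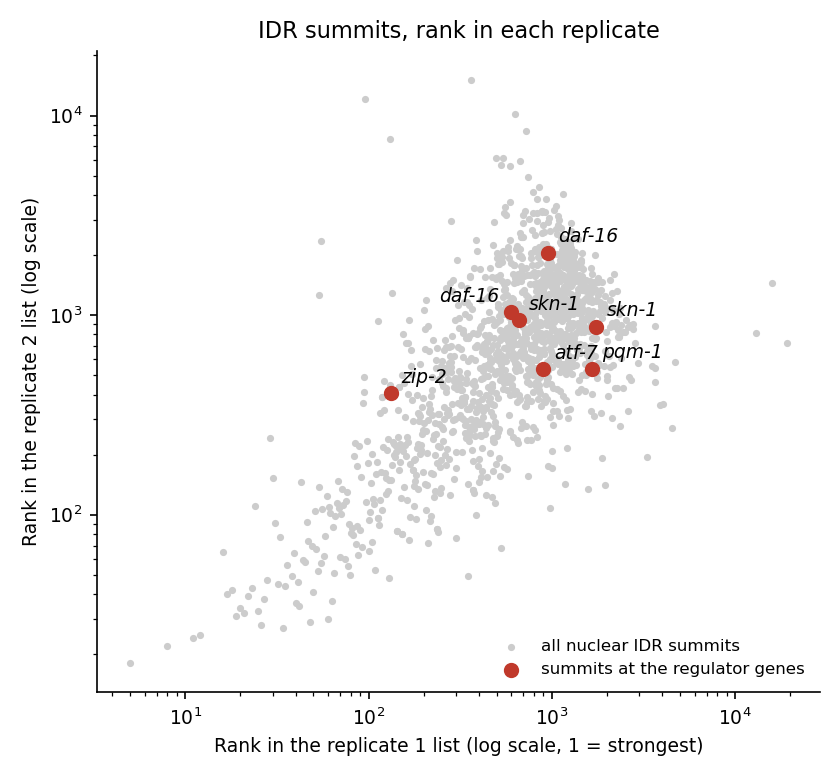
Rank of each nuclear IDR summit in the replicate 1 list (horizontal axis) and in the replicate 2 list (vertical axis), both on log scales with 1 as the strongest. Grey points are all nuclear IDR summits with a summit within 200 bp in both replicates, and red points the 7 such summits at the genes described; zip-2 lies at 132 and 407, and the other 6 have ranks from 537 to 2052.

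Searched words occurred in the windows at the 8 summits as follows, each counted on both strands. ATCAT, the core of the SKN-1 site, was in 5 of 8 windows, beside 18.0% of all nuclear IDR windows and 21.8% of the lower pooled windows of the same length. These were the windows of zip-2 and atf-7, 2 of the 3 of skn-1, and the stronger daf-16 summit. TGACG, part of the CREB/ATF site, was in 3 of 8 (16.2% and 13.6%), at atf-7, at the third skn-1 summit and at the weaker daf-16 summit. TGATAA, a word bound by GATA factors and linked to PQM-1, was in 2 of 8 (10.8% and 9.8%), at pqm-1 and at the stronger daf-16 summit. AGGTCA, the core of many nuclear receptor sites, was in 1 window, the third skn-1 summit, beside 4.01% of all IDR windows and 2.69% of lower pooled windows. That window also held ACGTG, the core of the hypoxia response element (1 of 8, beside 15.3% and 11.7%). GAGAGAG was in 1 window, at the farther skn-1 summit (7.45% and 3.24%). The DAF-16 element GTAAACA and the E-box CACGTG, which contains ACGTG, were in none, beside 1.9% and 5.49% of all IDR windows. With windows of 100 bases on each side of the summit, ACGTG and GAGAGAG were each in 3 of 8, beside 25.6% and 14.8% of all IDR windows. In these wider windows ATCAT was in 6 of 8, beside 33.3% of all IDR windows and 39.0% of lower pooled windows. TGACG stayed in 3 (28.1% of all IDR windows), TGATAA was in 3 (20.6%) and AGGTCA in 1 (7.45%). Short words occur often, and 8 windows are few, so these are matches of letters and not sites.

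Genes around these regulators were taken from 7 lists of related genes, of which 122 of 125 names were found in the annotation. An IDR summit lay at a start of 18 of the 122 (14.8%), and a pooled summit at 80 (65.6%), beside 3.62% and 42.0% of all genes. Over the genes with a pooled start summit, the best one had a median rank of 4281 in the lists and of 9686 among all genes. The lists hold the 8 genes described and were chosen with results of these data known.

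In the list of 28 bZIP factors, with skn-1 among them, 12 had an IDR summit at a start. That is 42.9%, beside 3.62% of all genes and 7.92% of genes with 3 or more starts. The 12 signals ran from 103 to 256. The count fell to 4 with a window of 500 bp upstream alone, to 4 with only the outermost start of each gene, and to 5 with the upper 720 IDR peaks. Shares over all genes under these settings are not given, so nothing is read from the falls. The list was chosen with results of these data known, so nothing is read from the 42.9% either. The strongest of the 12 was zip-7, with a signal of 256 and rank 163, and with rank 141 in replicate 1 and 221 in replicate 2. It was followed by zip-2 and by cebp-1, a C/EBP gene known from axon regeneration, with a signal of 223 at 707 bp upstream and rank 243 in replicate 1 and 285 in replicate 2. The unfolded protein response genes xbp-1 and atf-6 had signals of 206 and 129, at offsets of 4 and -299 bp. The list was completed by zip-11 (195), crh-1, the CREB gene (117), zip-5 (116), skn-1, crh-2 (108), zip-3 (103) and zip-1 (103). Of these 12 summits, 7 were in introns, 3 in a 5′ UTR and 2 between genes. Intronic summits were thus shared by zip-2 and skn-1 with zip-1, zip-3, zip-5, zip-7 and crh-2.

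The p38 MAP kinase list had no IDR summit at a start in 10 genes. It had one in the gene body of 2, atf-7 and vhp-1, beside 2.65% of all genes. A pooled summit at a start was listed for 9 of the 10. The strongest was that of mek-1, a MAP kinase kinase gene, with a signal of 98.3 and rank 1461, just below the IDR range, and with ranks 1892 and 2188 in the replicates. The 11 genes of the hypoxia list also had none. Among them egl-9, the prolyl hydroxylase that marks HIF-1 for degradation, was strongest with 92.5 and rank 1631. The 26 pathogen response genes had none, and the best of them, spp-1, which encodes an antimicrobial saposin-like protein, ranked 3855 in the pooled list. Peaks thus passed the IDR threshold at starts of several regulators and at none of the starts of these 26 genes. Only 3.62% of all genes had an IDR summit at a start, and lists of 10, 11 and 26 genes could lack one at that share. The lists were also chosen with results of these data known. The difference between lists was not tested, and nothing is read from it.

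Partners of SKN-1, DAF-16 and PQM-1 had a few strong summits. In the list around SKN-1, skn-1 and wdr-23, whose product directs SKN-1 to degradation, were the 2 of 16 genes with an IDR summit at a start, and wdr-23 alone had one among the 1441 strongest peaks of replicate 1. The wdr-23 summit had a signal of 142, 129 bp upstream, with ranks 834 and 675 in the replicates. Among 13 DAF-16 and PQM-1 cofactors, both 14-3-3 genes had one: ftt-2, with a signal of 380 and rank 44 (rank 38 and rank 49 in the replicates), and par-5, with 117 and rank 1046, whose summit lay in the 5′ UTR of its neighbour M117.3. Of 21 other immune and stress transcription factors or cofactors, 3 did. They were cbp-1, the p300/CBP acetyltransferase gene (signal 326, rank 79), nhr-49, a nuclear receptor of fat metabolism (146, rank 666), and ets-4 (112, rank 1129). Among the 1441 strongest peaks of replicate 2 alone, 5 of the 21 did. The summits of wdr-23, ftt-2, cbp-1, nhr-49 and ets-4 were between genes, unlike those of zip-2 and skn-1.

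**Figure D4:**
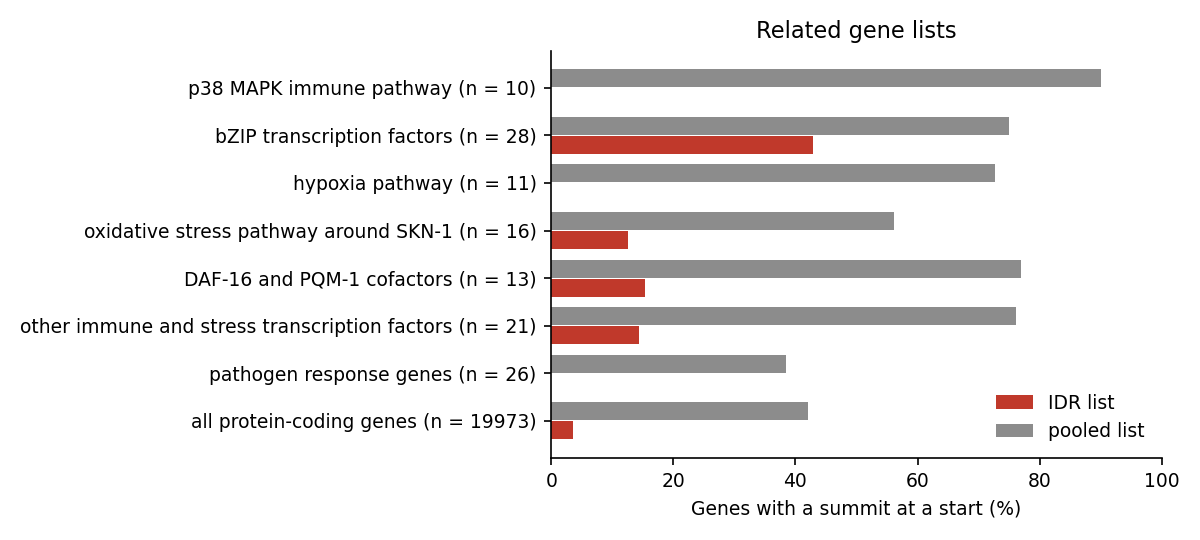
Percentage of genes with a summit at an annotated start (horizontal axis, from 0) in the IDR list (red) and in the pooled list (grey) for 7 lists of related genes and for all 19973 protein-coding genes. The bZIP list has the longest red bar at 42.9% (12 of 28 genes). With only the outermost starts, it has 4 of 28 genes. The DAF-16 and PQM-1 cofactors then have 2 of 13 and the other factors 3 of 21. The share of all genes with only the outermost starts is not given, so nothing is read from these counts. The p38, hypoxia and pathogen response lists have no red bar.

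The nhr-90 locus itself had no IDR peak, and its best ranks were 12249 in the pooled list, 2817 in replicate 1 and 1047 in replicate 2.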

How the data were processed

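Peak lists from ChIP-seq of tagged NHR-90 were used as the authors deposited them. Column 7 holds the peak signal that the authors' caller gave and column 9 a −log10 q-value, in the narrowPeak layout that the deposited text records name. The deposited −log10 q had a highest value of 2.79 shared by 2783 pooled peaks, so peaks were ranked by signal. The sources used here give no peak caller, aligner, version or IDR threshold, and read depth is unknown. Signals were compared within a list, or between the pooled list and the IDR list, whose peaks carry their pooled signals.

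Gene models came from Ensembl release 115 (WBcel235), and sequence from RefSeq. A summit is the peak start plus the deposited offset. The strongest replicate summit within 200 bp of an IDR summit counted as the same peak, and median distances are those to the closest replicate summit. Scripts used Python 3.11.15, pandas 2.3.3, numpy 2.4.6 and matplotlib 3.10.9, and the window step was checked on simulated positions. Of the ce10 lists only the number of IDR peaks (2232) entered the values given, in 1 alternative.

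The genes and lists were chosen with earlier results of these data known. With 1 group of samples, no test was made. Named genes are all 8 regulators, every related gene with an IDR summit at a start (in lists without one, the strongest pooled), neighbours that share a summit, and nhr-90. Neighbours dos-3, arrd-6, pmk-2 and pmk-3, and vhp-1 for its IDR summit in the gene body, were named after their values were seen. Alternatives changed the start window, the starts used and the peak list.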

Additional observations from a re-analysis of the deposited data

How the results depend on the processing

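The 2 genes with an IDR summit at a start fell to 1, zip-2, with a window of 500 bp upstream alone and with the upper 720 IDR peaks, and to 0 when only the outermost start of each gene was used. Among the strongest peaks of replicate 1, 2 became 1 (zip-2) with the outermost start. Among those of replicate 2, 2 became 1 with the 500 bp window, 4 with the wider window that starts at 2000 bp upstream, and 0 with the outermost start. The 18 genes of the related lists became 8 with the 500 bp window, 10 with the outermost start and 9 with the upper 720 peaks. They became 24 with the wider window and 26 with the pooled peaks of that number. With the strongest peaks of 1 replicate in place of the IDR list, the lists had 17 genes in replicate 1 and 19 in replicate 2. For the 8 genes these are the counts given above, zip-2 and atf-7 in replicate 1 and zip-2 and skn-1 in replicate 2. These are single-replicate lists and not IDR lists. With as many pooled peaks as the ce10 IDR list holds, the 3 other immune and stress factors became 6. The p38 and hypoxia lists, with 0 genes, had up to 3 and up to 1 under the alternatives. Shares over all genes under the other windows, starts and peak numbers are not given, so nothing is read from these changes. No paired analysis was possible because there is only 1 group of samples. Reads behind each signal are not given, so no counting error could be attached to a peak.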
